A study of Danio rerio with 21 samples.

Results

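Cryoinjury freezes part of the ventricle wall and kills the cells within it, after which the adult zebrafish heart clears the dead tissue and rebuilds muscle. The hearts described here were collected 4 hours post-injury (hpi), the earliest time of the series, and were set against hearts of control fish. The comparison holds 6 of the 21 arrays of the study: 3 pools of ventricles at 4 hpi and 3 pools of control ventricles, with the 3 pools taken at 1 day post-injury (dpi) used as the next time for reference. Each pool held RNA of 5 ventricles from wild-type fish of the TU strain aged 10 to 11 months, and each went on 1 Zebrafish Gene 1.0 ST array (Affymetrix), which reads a transcript with many short probes along its exons. The fish carried no transgene or mutation, and the only difference the labels give between the groups is the injury and the time after it. The controls are labelled uninjured and the methods describe no operation on them, although headings in a supplementary table of the study call them sham, so whether they were operated on is not settled. If they were not, the freezing cannot be told apart from the opening of the chest and the anaesthesia. The hour of day at which hearts were taken is not given in the sources used here. A ventricle holds muscle, endocardium, epicardium, fibroblasts and blood, so that fewer cells of a type and less RNA per cell cannot be told apart in these pools.

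The first hours after injury are the time in which wounded tissue switches on genes that need no new protein for their transcription. Damaged cells release their contents, which surviving cells and resident or arriving leukocytes sense through receptors that act on the transcription factors NF-kB, AP-1 and Stat3. Muscle that loses oxygen or is stretched changes the genes of its metabolism and its peptide hormones. In the zebrafish heart the epicardium and the endocardium of the whole organ, and not only of the wound, take part in this early response.

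Values are log2 signals, in which a difference of 1 is a 2-fold change, and they compare a gene between samples but do not rank genes by amount. A feature (a set of probes) was tested where its log2 signal was above 6 in at least 1 of the 21 arrays, which left 35783 of 75212 features. Among them 12313 carried a single gene symbol and stood for 11687 named genes. The median signal of the 6 arrays was 5.18, which is near the background, and a rise that starts there or a fall that ends there gives a lower limit of the change. The ventricular muscle markers averaged between 11.88 and 12 in the 4 hpi pools, against 11.92 to 11.98 in the control pools. Of these 16 markers 3 were called higher and 4 lower, with a median difference of -0.07. The 3 include the natriuretic peptide genes *nppb* and *nppa*, described below, which raise the 4 hpi means. Over tested features, arrays correlated at between 0.960 and 0.967 among 4 hpi pools, between 0.965 and 0.975 among control pools, and between 0.883 and 0.896 across the groups.

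At 4 hpi, 7636 features (21.3% of those tested) were higher and 6270 (17.5%) were lower than in control hearts at an adjusted p under 0.05. Among named genes, 2668 (22.8%) were higher and 3160 (27%) were lower, and with a change of over 1.6-fold 1700 (14.5%) were higher and 1637 (14%) lower. These shares are the background against which every gene group below is read. The split between the directions depended on how the arrays were scaled: 54.9% of called features were higher with the values as deposited, 43.6% after quantile normalization and 40.7% after centring each array on its median. The median log2 difference of named genes was -0.05 as deposited, -0.14 after quantile normalization and -0.18 after centring, so small shifts of whole groups towards lower values carry little weight. Differences below are log2, 4 hpi minus control, ± the standard error of the fit, and a gene is said to have risen or fallen only where it passed the test. All 4 hpi pools lay above all control pools in 9441 features and below them in 7814. Pools without overlap were therefore common, and lack of overlap alone adds little support to a change.

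The large changes were mostly rises from a low level. A rise of over 4-fold was called for 236 named genes, whose median control level was 5.50, and a fall of that size for 66, whose median control level was 8.09. Of the 236, 151 had a control mean below the signal minimum of 6, and 39 of the 66 had a 4 hpi mean below it. The 4 hpi pools were not alike in these genes: pool 3 was the lowest of the 3 in 114 of the 236, pool 2 in 74 and pool 1 in 48.

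**Figure D1:**
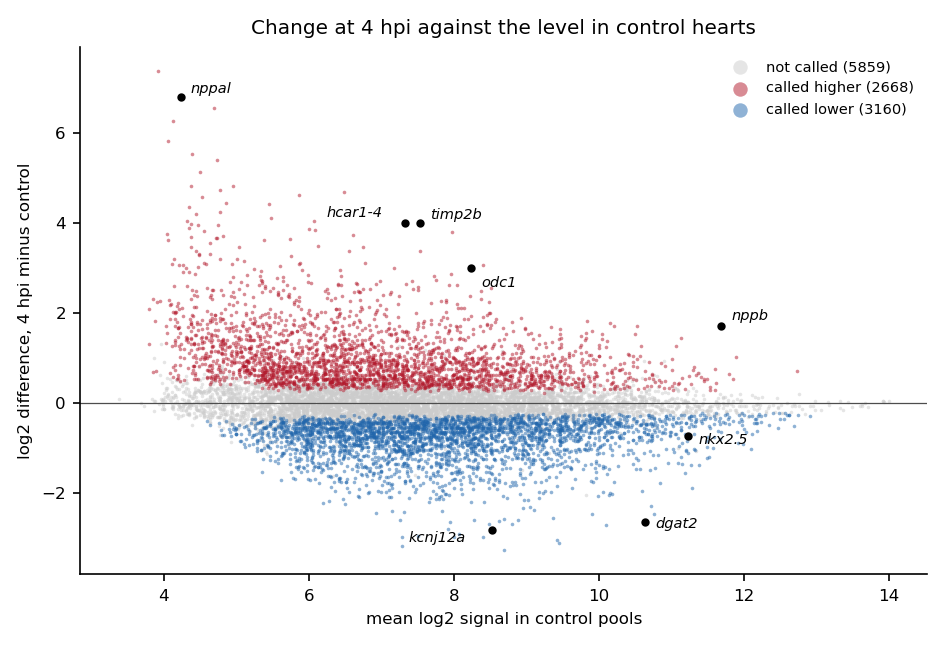
Log2 difference between 4 hpi and control hearts (vertical axis) against the mean log2 signal of the 3 control pools (horizontal axis), 1 point per named gene, for 2668 genes called higher (red), 3160 called lower (blue) and 5859 not called (grey). The tallest rises start from low control levels, whereas *hcar1-4*, *timp2b*, *odc1* and *nppb* rose from levels above 7.

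Several of the genes that rose furthest are secreted or act on secreted factors. *nppal*, which encodes a natriuretic peptide-like hormone, had a log2 signal of 11.23, 10.93 and 10.94 in the 4 hpi pools, against 4.34, 4.27 and 4.08 in the control pools, a rise of 6.80 ± 0.52 (adjusted p = 7.7e-08). *tnfrsf11b*, which encodes the soluble decoy receptor osteoprotegerin, read 10.69, 9.70 and 10.03 at 4 hpi, against 4.57, 4.76 and 4.85 in control hearts, and rose by 5.41 ± 0.44 (adjusted p = 1.15e-07). *c7b*, a component of the terminal complement complex, read 9.61, 9.89 and 9.37 at 4 hpi, against 4.59, 4.36 and 4.54 in control hearts (adjusted p = 3.12e-09). In all 3 genes the lowest 4 hpi pool lay more than 4 log2 units above the highest control pool. A day later *c7b* lay far nearer to the control level: its mean was 4.50 in control hearts, 9.62 at 4 hpi and 5.37 at 1 dpi, a difference of 4.25 (adjusted p = 9.11e-09).

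Other genes of this set act inside cells or at their surface. *map1lc3cl*, a member of the Lc3 family that coats autophagosomes, read 9.98, 9.51 and 10.08 in 4 hpi pools, against 4.04, 4.04 and 4.06 in control pools, while *map1lc3b*, another gene of the family, was not called (0.11). The transporter gene *slc16a9a* read 8.95, 9.18 and 9.23 at 4 hpi, against 4.36, 4.56 and 4.66 in control hearts. *fosl1a*, which encodes the AP-1 subunit Fra1, read 11.25, 10.92 and 11.37 at 4 hpi, against 5.50, 6.68 and 7.31 in control hearts. The control pools of *fosl1a* were spread over more than 1 log2 unit, yet the highest of them stayed well below the lowest 4 hpi pool. Also among the 15 largest rises were the little known genes *thfp5*, *teni.1*, *si:ch211-284o19.8* and *si:dkey-267n13.1*, with differences of 4.83, 4.73, 4.82 and 4.62. Outside the rule for named genes, and chosen after its values were seen, *hcar1-4*, of the hydroxycarboxylic acid receptor family that senses lactate and related acids in mammals, read 11.21, 11.45 and 11.34 at 4 hpi, against 6.99, 7.14 and 7.86 in control hearts.

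The largest falls were smaller than the largest rises, and *bcr*, *coro2aa* and *inhbb* led them. *klf15*, a transcription factor of fasting and lipid metabolism in mammalian heart, read 6.09, 5.65 and 5.62 in 4 hpi pools, against 8.45, 8.56 and 8.46 in control pools (adjusted p = 6.64e-07). *nos1*, the neuronal nitric oxide synthase, averaged 5.30 at 4 hpi, against 7.95 in control hearts. The control pools of both genes lay close together, and their 4 hpi levels were near the signal minimum of 6 or below it. Falls of similar size were called for *tnfsf12*, which encodes the cytokine Tweak (-2.99), *mhc2dgb*, a class II antigen presentation gene (-2.99), *cyp2ad3*, of the cytochrome P450 family (-2.96), the coronin gene *coro2aa* (-3.18) and *kctd12.2* (-2.71). The water channel gene *aqp3a* read 4.73, 5.61 and 5.00 at 4 hpi, against 6.51, 9.12 and 8.14 in control hearts (adjusted p = 0.0283), and this call was lost without 4 hpi pool 1 or 3 or control pool 2 or 3, with differences between -2.75 and -2.21. Its spread among control pools went with that of skin markers, which averaged 5.34, 5.95 and 5.40 in the 4 hpi pools, against 4.87, 7.16 and 6.35 in the control pools, and the part of such cells in the *aqp3a* result was not tested.

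**Figure D2:**
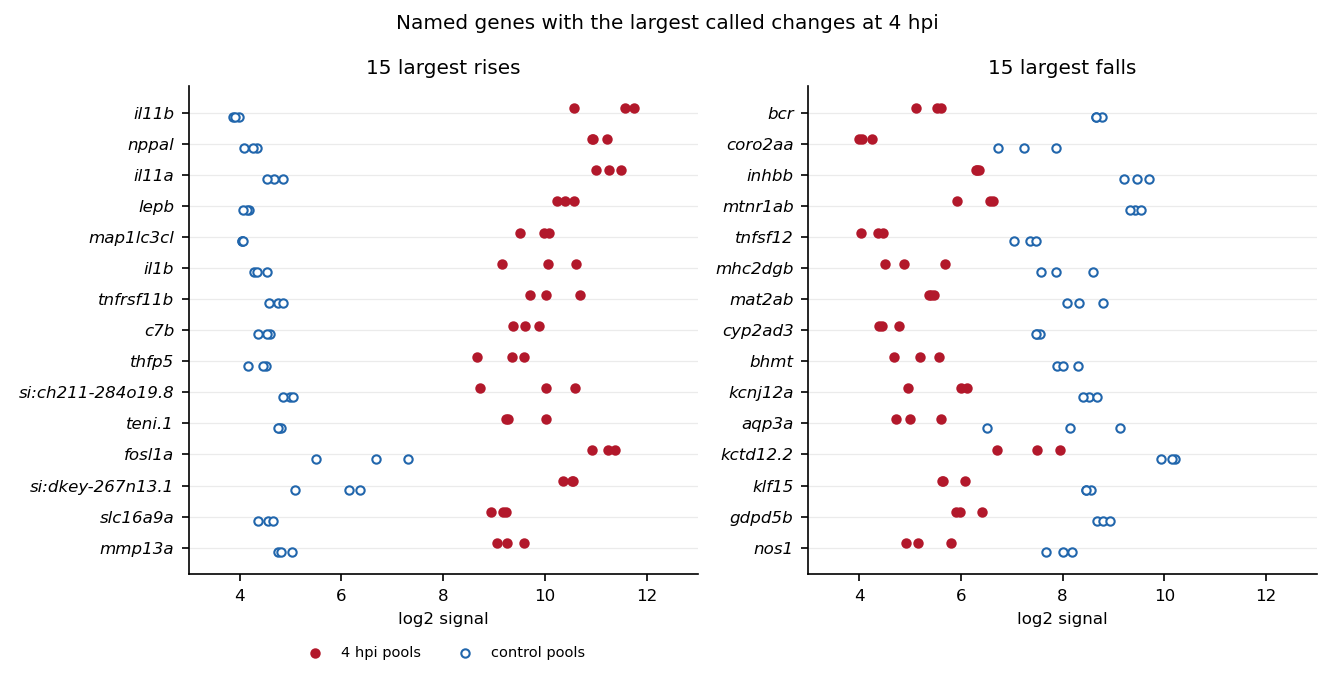
Log2 signal (horizontal axis) in each 4 hpi pool (filled red) and each control pool (open blue) for the 15 named genes with the largest called rises (left) and the 15 with the largest called falls (right). In none of the 30 genes do the pools of the groups overlap, which the rule for these genes required, and most of the risen genes start between 4 and 5.

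Cytokines of the interleukin 6 family act through receptors that share the gp130 chain, the Jak kinases and Stat3, and Stat3 then drives its own inhibitors of the Socs family. Of 34 measured genes of this pathway (of 39 on the array), 25 rose and 3 fell, with a median difference of 1.34. All 7 measured ligands rose, though only 1 of the 7 was above the signal minimum in any control pool. The ligand gene *il11b* (interleukin 11), the largest rise of the 11687 named genes, read 11.58, 11.76 and 10.57 in 4 hpi pools, against 3.99, 3.86 and 3.91 in control pools. Its paralog *il11a* read 11.26, 11.00 and 11.50 at 4 hpi, against 4.85, 4.67 and 4.54 in control hearts, and the leptin gene *lepb* read 10.58, 10.23 and 10.39 at 4 hpi, against 4.19, 4.15 and 4.06 in control hearts. Control pools were at the background for all 3 ligand genes. Among 8 receptors 5 rose, led by *csf3r*, the granulocyte colony-stimulating factor receptor, which read 8.56, 8.85 and 7.25 in 4 hpi pools, against 5.02, 4.84 and 5.17 in control pools, and by *lifrb*, a receptor for leukaemia inhibitory factor, which read 7.86, 8.01 and 7.93 at 4 hpi, against 5.33, 5.23 and 5.39 in control hearts. *lifrb* was even across the 4 hpi pools, whereas *csf3r*, a gene of neutrophils, was more than 1 log2 unit lower in pool 3 than in the other two. The interleukin 11 receptor *il11ra* (11.04 at 4 hpi, 10.97 in control) and the leptin receptor *lepr* (8.55 and 8.71) were not called.

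Within the cell the Jak and Stat genes went in both directions. *stat3* read 10.69, 10.53 and 10.63 in 4 hpi pools, against 8.74, 8.76 and 8.93 in control pools, and rose by 1.81 ± 0.14 (adjusted p = 7.8e-08). The kinase genes *tyk2* and *jak1* rose by 1.93 and 0.94, while *stat5a* (-0.46), *stat5b* (-0.43) and *jak2a* (-0.60) fell. The *jak2a* call was lost without 4 hpi pool 1 (-0.41) and without control pool 1 (-0.42). Of 11 targets and inhibitors 10 rose. *socs3b* read 10.05, 10.28 and 10.19 at 4 hpi, against 6.98, 7.32 and 7.21 in control hearts. *bcl3*, a partner of NF-kB, read 8.41, 8.53 and 8.36 at 4 hpi, against 4.75, 4.44 and 4.21 in control hearts. Both were even among the pools of each group, and *socs3b* was as high at 1 dpi (10.17 at 4 hpi, 10.16 at 1 dpi).

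Interleukin 1, Tnf and Toll-like receptor signals meet at NF-kB, which is held in the cytoplasm by inhibitors that it also induces. Of 38 measured genes (of 51 on the array) 27 rose and 4 fell, with a median of 0.95. Of the 27 rises 10 were above the signal minimum in no control pool, among them all 3 ligand rises. The cytokine gene *il1b* read 10.61, 10.07 and 9.16 in 4 hpi pools, against 4.29, 4.35 and 4.54 in control pools. Among receptors and adaptors 12 of 14 rose, and the flagellin receptors *tlr5a* and *tlr5b* rose by 3.06 ± 0.21 and 2.53 ± 0.25. The subunit gene *rel* and the inhibitor genes *nfkbiaa* and *tnfaip3* rose by 1.48, 2.14 and 1.41. Of the targets, *acod1*, which encodes the itaconate-producing enzyme of activated macrophages, read 8.38, 7.97 and 7.02 in 4 hpi pools, against 4.49, 4.49 and 4.48 in control pools, and *ptgs2a*, an inducible cyclooxygenase of prostaglandin synthesis, read 10.11, 9.83 and 9.98 at 4 hpi, against 6.94, 7.93 and 7.46 in control hearts. *acod1* was lowest in pool 3, as *csf3r* was, and *ptgs2a* was not. The macrophage growth factor *il34* rose by 2.39 ± 0.29.

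Chemokines guide leukocytes along gradients through receptors on their surface. Of 11 measured ligands (of 20 on the array) 3 rose and 7 fell, with a median of -0.93, and of 10 receptors 6 rose and 1 fell. Of these receptors 4 were above the signal minimum in no 4 hpi or control pool. Of the 6 receptor rises 4 were above it in no control pool. *ccl34a.4* read 11.34, 11.05 and 10.36 in 4 hpi pools, against 7.50, 7.38 and 7.73 in control pools, and *cxcl18b*, a neutrophil attractant of fish, read 9.60, 9.58 and 9.13 at 4 hpi, against 7.27, 6.92 and 6.90 in control hearts. The ligands *ccl34b.4* (-1.65), *ccl25b* (-1.42) and *ccl36.1* (-1.35) fell. The neutrophil receptor *cxcr1* read 6.71, 6.26 and 5.97 at 4 hpi, against 4.08, 4.32 and 4.24 in control hearts, and the single receptor fall, *ackr4b*, was not called in the fits without 4 hpi pool 1 or 2 or control pool 2 or 3. In the fit of the 6 arrays alone 4 ligands fell and not 7.

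Immediate early transcription factors are switched on within minutes of a stimulus. Among 13 measured AP-1 genes 8 rose and 0 fell, and among 5 Egr and Nr4a genes 0 rose and 1, *nr4a2a*, fell. *fosb* read 9.05, 8.05 and 9.49 in 4 hpi pools, against 4.11, 7.03 and 6.57 in control pools, and *junba* read 10.52, 10.12 and 11.02 at 4 hpi, against 6.97, 8.32 and 8.49 in control hearts. Neither *egr1* nor *atf3*, itself of the AP-1 list, was called: *egr1* read 8.09, 7.91 and 7.91 at 4 hpi, against 7.13, 8.42 and 8.66 in control hearts, and *atf3* read 9.71, 9.64 and 10.18 at 4 hpi, against 8.60, 9.91 and 10.71 in control hearts. In each of these 4 genes control pool 1 was the lowest control pool, by more than 1 log2 unit, and the other two control pools of *egr1* and *atf3* lay among or above the 4 hpi pools. Without control pool 1 the AP-1 genes gave 7 rises and 1 fall. The part of handling before collection in this spread was not tested.

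The C/EBP and Krüppel-like factors of the acute response and of metabolism gave 7 rises and 1 fall among 16 genes. *cebpb*, a driver of acute phase genes, read 9.40, 9.39 and 9.85 in 4 hpi pools, against 6.78, 7.36 and 7.23 in control pools. *klf11b* read 11.43, 11.51 and 11.48 at 4 hpi, against 8.53, 8.37 and 8.33 in control hearts, which made it the largest rise of this group, and *klf15*, given above, was its single fall. Of 22 genes that damp MAP kinase signals 8 rose and 2 fell. The phosphatase gene *dusp5*, which acts on Erk in the nucleus, read 10.70, 10.36 and 10.72 at 4 hpi, against 7.69, 8.23 and 8.75 in control hearts, while *dusp10*, which acts on Jnk and p38, fell by 1.56 ± 0.36, and *dusp6* was not called (0.21).

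Most measured genes of ribosome assembly rose. Ribosomes are put together in the nucleolus by a large set of processing factors that are not part of the finished particle, and the genes of these factors are commonly co-expressed in growing cells. Of 70 measured genes for ribosome biogenesis and nucleolar proteins (of 75 on the array) 58 rose and 2 fell, against 22.8% and 27% of all named genes, with a median of 0.81 and 42 of the rises over 1.6-fold. Their mean was 7.64, 7.58 and 7.54 in the 4 hpi pools, against 6.87, 6.86 and 6.90 in the control pools, without overlap. Of the 58, 44 were above the signal minimum in a control pool, so most of the rises did not start at the background. *nop2*, an rRNA methyltransferase, read 8.04, 7.85 and 8.03 at 4 hpi, against 6.35, 6.48 and 6.79 in control hearts. *nip7* and *rrp9*, which act in pre-rRNA processing, rose by 1.40 ± 0.19 and 1.33 ± 0.21. The falls were *npm1b*, a nucleophosmin gene (-0.92 ± 0.13), and *utp18* (-0.48 ± 0.12). At the same threshold the count of rises lay between 49 and 58 over the other filters, scalings, fits and left-out pools.

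Few genes for the proteins of the finished ribosome passed the test. Of 63 cytosolic ribosomal protein genes 3 rose and 5 fell, with a median of 0.03, and 0 of the 3 rises exceeded 1.6-fold. *rpl13a* (-1.08) and *rpl7a* (-0.87) were among the falls. The count of falls was 11 after centring, 12 when the features of a gene were averaged, 2 in the 6 arrays alone, and 3 without 4 hpi pool 2 or without control pool 3. Among 45 initiation and elongation factors 8 rose and 6 fell (14 falls after centring and 3 without 4 hpi pool 1), and *eif4ebp3l*, a brake on cap-dependent initiation, rose by 1.54. Of 19 aminoacyl-tRNA synthetases 7 rose and 0 fell. Of 48 proteasome and ubiquitin genes 3 rose and 3 fell, with 8 falls after centring and 1 without control pool 1. The rises were the ubiquitin gene *ubb* (1.54), the muscle ubiquitin ligase gene *fbxo32* (1.56) and *psma6b* (0.53), the last of which was not called without control pool 3 (0.37).

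**Figure D3:**
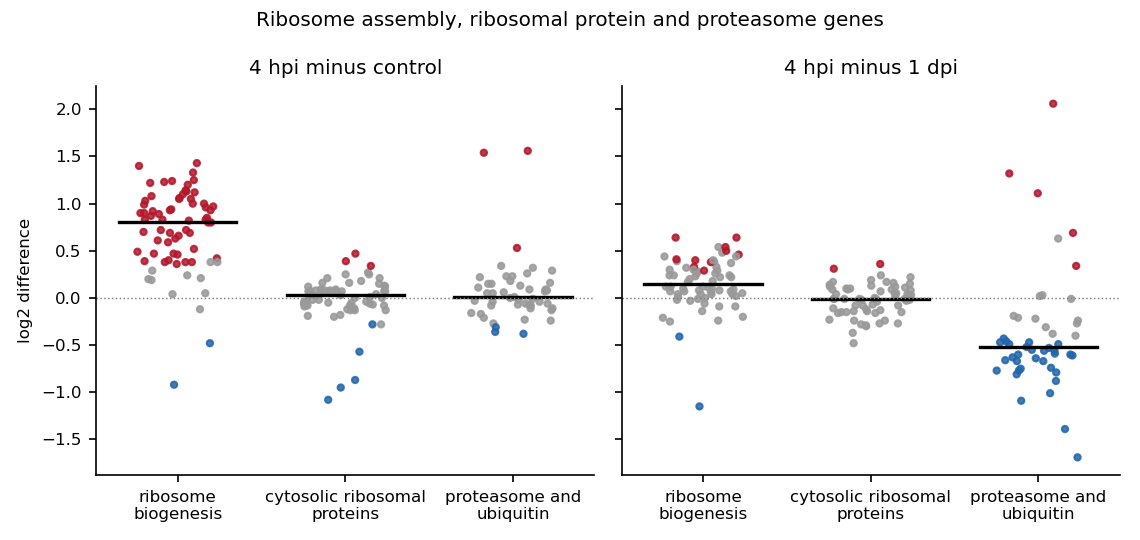
Log2 differences (vertical axis) of 4 hpi minus control hearts (left) and of 4 hpi minus 1 dpi hearts (right) for measured genes of ribosome biogenesis, cytosolic ribosomal proteins and the proteasome, 1 point per gene, red where called higher at 4 hpi, blue where called lower, grey where not called, with the median as a black bar. The biogenesis genes lie above control (median 0.81) and the ribosomal proteins around 0 (median 0.03), while proteasome genes are near 0 against control (0.01) and below 1 dpi (-0.53).

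Amino acid supply changed gene by gene. Of 65 measured genes 24 rose and 16 fell. The transporter gene *slc7a5*, which imports large neutral amino acids, read 9.51, 9.15 and 8.46 in 4 hpi pools, against 5.83, 5.83 and 5.62 in control pools, and its partner chain *slc3a2b* rose by 1.65 ± 0.27. *slc7a3a*, a carrier of arginine and lysine, read 8.92, 8.86 and 9.22 at 4 hpi, against 5.52, 6.12 and 6.00 in control hearts. The cystine carrier *slc7a11* read 7.06, 6.87 and 5.28 at 4 hpi, against 4.13, 4.21 and 4.22 in control hearts, and was much lower in pool 3 than in pools 1 and 2. *asns*, the asparagine synthetase gene that Atf4 drives in other settings, fell by 0.73.

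Genes around methionine and the polyamines went in opposite directions. S-adenosylmethionine is made from methionine, and polyamines are made from ornithine with a group taken from S-adenosylmethionine. *odc1*, the first enzyme of polyamine synthesis, read 11.31, 11.02 and 11.39 in 4 hpi pools, against 7.70, 8.46 and 8.57 in control pools, a rise of 3.00 ± 0.37 (adjusted p = 7.05e-06). *sms*, the spermine synthase gene, read 6.19, 6.67 and 6.97 at 4 hpi, against 9.09, 8.82 and 8.97 in control hearts, and fell by 2.35 ± 0.17 (adjusted p = 3.32e-08). The synthase of the step between, *srm*, was not called (-0.08). *mat2ab*, one of the genes for S-adenosylmethionine synthetase, read 5.47, 5.37 and 5.41 at 4 hpi, against 8.33, 8.79 and 8.08 in control hearts, and *mat1a* fell by 2.18 ± 0.30. The paralog *mat2aa* did not pass the test, at 10.07, 9.89 and 9.82 in 4 hpi pools, against 9.94, 9.87 and 10.02 in control pools. *bhmt*, which remakes methionine from homocysteine with betaine, read 4.68, 5.19 and 5.57 at 4 hpi, against 7.88, 8.01 and 8.31 in control hearts.

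The integrated stress and unfolded protein responses are read out by targets of Atf4, Xbp1 and Atf6. Of 31 measured targets 17 rose and 4 fell, with a median of 0.59, and of 14 regulators 3 rose and 0 fell. *ppp1r15a*, which restores translation by removing the phosphate from eIF2-alpha, rose by 1.74 ± 0.29. *ddit4*, an inhibitor of mTor, rose by 1.68. *ddit3*, which encodes Chop, and *chac1* were not called, at 0.20 and 0.04. Against 1 dpi, 20 of the 31 targets were lower at 4 hpi and 5 were higher.

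Heat shock genes showed no shared direction, with 9 rises and 13 falls among 55 and a median of -0.03. The rises were 5 in the fit of the 6 arrays alone, and also without 4 hpi pool 1 and without control pool 2, and the falls were 8 without 4 hpi pool 2. The small heat shock protein gene *hspb9* averaged 7.80 in 4 hpi pools, against 4.48 in control pools, and *hspa1b*, an inducible Hsp70 gene, read 8.32, 6.75 and 7.27 at 4 hpi, against 5.74, 5.40 and 5.47 in control hearts. The Hsp90 cochaperone gene *fkbp4* fell by 1.16, and the heat shock factor *hsf1* was not called (0.00). *serpinh1a*, a collagen chaperone, fell by 1.81 ± 0.23.

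Hypoxia acts through the Hif factors, which raise glucose uptake, glycolysis and vessel growth. Of 37 measured Hif targets (of 39 on the array) 14 rose and 4 fell, with a median of 0.31. The glucose transporter *slc2a3b* read 8.61, 8.47 and 8.98 in 4 hpi pools, against 4.35, 4.42 and 4.24 in control pools. *angptl4*, an inhibitor of lipoprotein lipase, read 9.27, 9.14 and 9.73 at 4 hpi, against 4.93, 6.16 and 6.12 in control hearts. The peptide gene *admb* (adrenomedullin) read 7.74, 8.53 and 7.17 at 4 hpi, against 4.52, 4.15 and 4.66 in control hearts. These 3 were the largest rises of the list, and *pfkfb3* and *hk2*, which open glycolysis, rose by 2.65 ± 0.32 and 2.38 ± 0.28. Other well known targets did not pass the test: *vegfaa* (-0.01), *pgk1* (-0.01), *ldha* (0.04), *slc2a1a* (-0.04) and *bnip3* (-0.23). *hif1al* and *hif1ab* rose by 1.52 and 0.57, and the endothelial Hif genes *epas1a* (-0.62) and *epas1b* (-1.04) fell. Of 41 glycolysis genes in all, 6 rose and 13 fell, with a median of -0.16.

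Sarcomere genes were nearly level at 4 hpi. Of 46 measured genes 8 rose and 12 fell, with a median of -0.05. The contractile genes *myh7l*, *myl7* and *actc1a* were not called (-0.07, -0.07 and -0.09), while the contractile genes *myh7* and *tnnc1a* fell. *ankrd1a*, a stretch-responsive protein of the sarcomere, read 8.98, 8.73 and 8.42 in 4 hpi pools, against 4.64, 4.59 and 4.99 in control pools. *tcap*, a titin cap gene, rose by 1.03 ± 0.30 (0.82 and not called without 4 hpi pool 3, 0.83 and not called without control pool 1), and *fhl2b* (-1.89 ± 0.38) and *myom1a* (-1.56 ± 0.16) fell. The calcium handling list, which also holds creatine kinase and myoglobin genes, gave 3 rises and 10 falls among 20. The largest called rise was the creatine kinase gene *ckmb*. The falls included the triadin gene *trdn* (-0.82) and the junctophilin gene *jph2* (-0.79). The 3 rises were 0 without 4 hpi pool 2 and 1 without 4 hpi pool 1 or without any single control pool.

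Ion channels and connexins set the rhythm and the spread of the heartbeat. Of 31 measured channel, connexin and pump genes (of 61 on the array) 10 rose and 9 fell. *kcnj12a*, which carries the inward rectifier current that holds the resting potential, read 6.12, 6.01 and 4.96 in 4 hpi pools, against 8.52, 8.67 and 8.41 in control pools. *kcnj11*, of the ATP-sensitive potassium channel, read 7.00, 6.17 and 6.62 at 4 hpi, against 8.70, 8.75 and 8.73 in control hearts. *kcnh6a*, the zebrafish Erg channel of repolarisation, read 11.67, 11.46 and 11.88 at 4 hpi, against 9.66, 9.64 and 10.23 in control hearts. The pools of these 3 genes did not overlap between the groups. For *kcnj12a* this was required by the rule for the largest falls. The other measured inward rectifier genes did not fall: *kcnj2a* rose by 1.39 ± 0.29, and *kcnj5* (0.27) and *kcnj8* (-0.20) were not called. The pacemaker channel genes split: *hcn2b* rose by 1.26 ± 0.23 and *hcn4* fell. Among connexins *gja1b* read 8.84, 8.12 and 8.84 at 4 hpi, against 5.73, 7.14 and 6.82 in control hearts, and *gja5b* read 9.61, 9.58 and 9.02 at 4 hpi, against 11.36, 11.41 and 11.11 in control hearts.

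Of 39 transcription factors of the heart (of 49 on the array) 10 rose and 17 fell, with a median of -0.38. The falls included 4 cardiac factors chosen after their values were seen: *tbx20* (10.58 at 4 hpi, 11.58 in control), *nkx2.5* (-0.74 ± 0.12), *tbx5a* (-0.59 ± 0.18) and *gata4* (-0.41 ± 0.09). In the fit of the 6 arrays alone *gata4* was not called (limma adjusted p = 0.0527). *nkx2.5* read 10.45, 10.55 and 10.48 in 4 hpi pools, against 11.21, 11.32 and 11.17 in control pools, a narrow fall with no overlap. The forkhead genes split: *foxo1a* read 10.56, 10.16 and 10.54 at 4 hpi, against 8.89, 8.43 and 8.07 in control hearts, and *foxo3a* read 8.15, 8.41 and 7.94 at 4 hpi, against 10.23, 10.15 and 10.12 in control hearts. Without 4 hpi pool 3 *tbx5a* was not called (-0.50). *tead1a*, the DNA-binding partner of Yap, rose by 1.80 ± 0.13, and of 31 Yap and stretch genes 12 rose and 5 fell (3 without 4 hpi pool 2, control pool 2 or control pool 3).

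Beside *nppal*, 3 of the 4 measured genes for natriuretic peptides and their receptors rose. *nppb* read 13.42, 13.32 and 13.42 in 4 hpi pools, against 11.58, 11.71 and 11.78 in control pools, without overlap. *nppc* rose by 1.55 ± 0.31, and *nppa* by 0.45 ± 0.16 (adjusted p = 0.0305). *nppa* read 10.74, 10.31 and 10.82 at 4 hpi, against 10.00, 10.37 and 10.17 in control hearts, so its pools overlapped. The *nppa* call was lost without 4 hpi pool 1 or 3 and without control pool 1 or 3, with differences between 0.35 and 0.44.

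Heart muscle burns mainly fatty acids in its mitochondria. Of 65 genes of the respiratory chain and ATP synthase 1 rose and 14 fell, with a median of -0.16 and no fall over 1.6-fold. Of 25 citric acid cycle and pyruvate genes 2 rose and 15 fell. The falls were 21.5% of the first set, below the 27% of all named genes, and 60% of the second. In both sets together they were 32.2%, near that share. The falls in these 2 sets together numbered 29 as deposited, 54 after centring, 14 in the 6 arrays alone, 19 without 4 hpi pool 1 and 18 without control pool 2, and those of the respiratory chain and ATP synthase alone were 7 or 8 without 4 hpi pool 1 or 2 or without control pool 2 or 3. Of 48 genes of fatty acid oxidation and its regulators 4 rose and 25 fell, 8 of the falls over 1.6-fold, with a median of -0.35. At the same threshold the falls numbered 19 to 30 over the other filters, scalings, fits and left-out pools. The nuclear receptor genes *rxraa* (-2.09 ± 0.15) and *esrrga* (-1.77 ± 0.12), whose proteins drive such genes, fell. *rxraa* read 5.83, 5.83 and 5.47 in 4 hpi pools, against 7.65, 7.89 and 7.85 in control pools. *lpla*, the lipoprotein lipase gene, fell by 1.39, and *pdk2a*, which restrains the use of pyruvate inside the mitochondria, rose by 1.01. *phyh*, of peroxisomal oxidation, read 9.87, 10.02 and 9.80 at 4 hpi, against 6.71, 6.79 and 6.86 in control hearts, against the trend of its list.

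In lipid synthesis 7 genes rose (4 without 4 hpi pool 2) and 9 fell of 23. *dgat2*, which makes triglyceride, read 7.49, 8.14 and 8.32 in 4 hpi pools, against 10.69, 10.56 and 10.66 in control pools. *scd*, the stearoyl-CoA desaturase gene, read 5.67, 6.64 and 6.80 at 4 hpi, against 7.98, 7.76 and 8.50 in control hearts. Both were lower still at 1 dpi, with means of 6.69 and 5.02. The lipid droplet gene *plin2* rose by 1.48 ± 0.28.

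The circadian clock runs in fish heart cells and shifts with light and time of day. Of 41 measured clock genes 11 rose and 12 fell, 20 of these over 1.6-fold. The output factor *dbpa* read 5.79, 6.04 and 6.98 in 4 hpi pools, against 8.98, 8.71 and 8.97 in control pools. The repressor *nr1d1* read 6.36, 6.53 and 7.53 at 4 hpi, against 9.06, 9.57 and 9.47 in control hearts (adjusted p = 0.0164), and was not called without 4 hpi pool 1 (-2.34). *per3* read 8.10, 8.06 and 8.27 at 4 hpi, against 9.90, 10.02 and 9.83 in control hearts. *per1a* (-1.82) and *per1b* (-1.77) fell, and *per2* was not called (-0.22). *nfil3-5*, which represses the targets of *dbpa*, averaged 9.31 at 4 hpi, against 6.67 in control hearts, and *csnk1e*, a kinase of Per proteins, rose by 1.70 ± 0.22. Collection hour and injury cannot be told apart here. Of 24 genes of the response to glucocorticoid, a stress hormone, 11 rose and 4 fell, and this list partly overlaps with those above. The largest falls were *per1a*, *nr3c2* and *fkbp4*. *crispld2* rose by 2.37 ± 0.28.

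**Figure D4:**
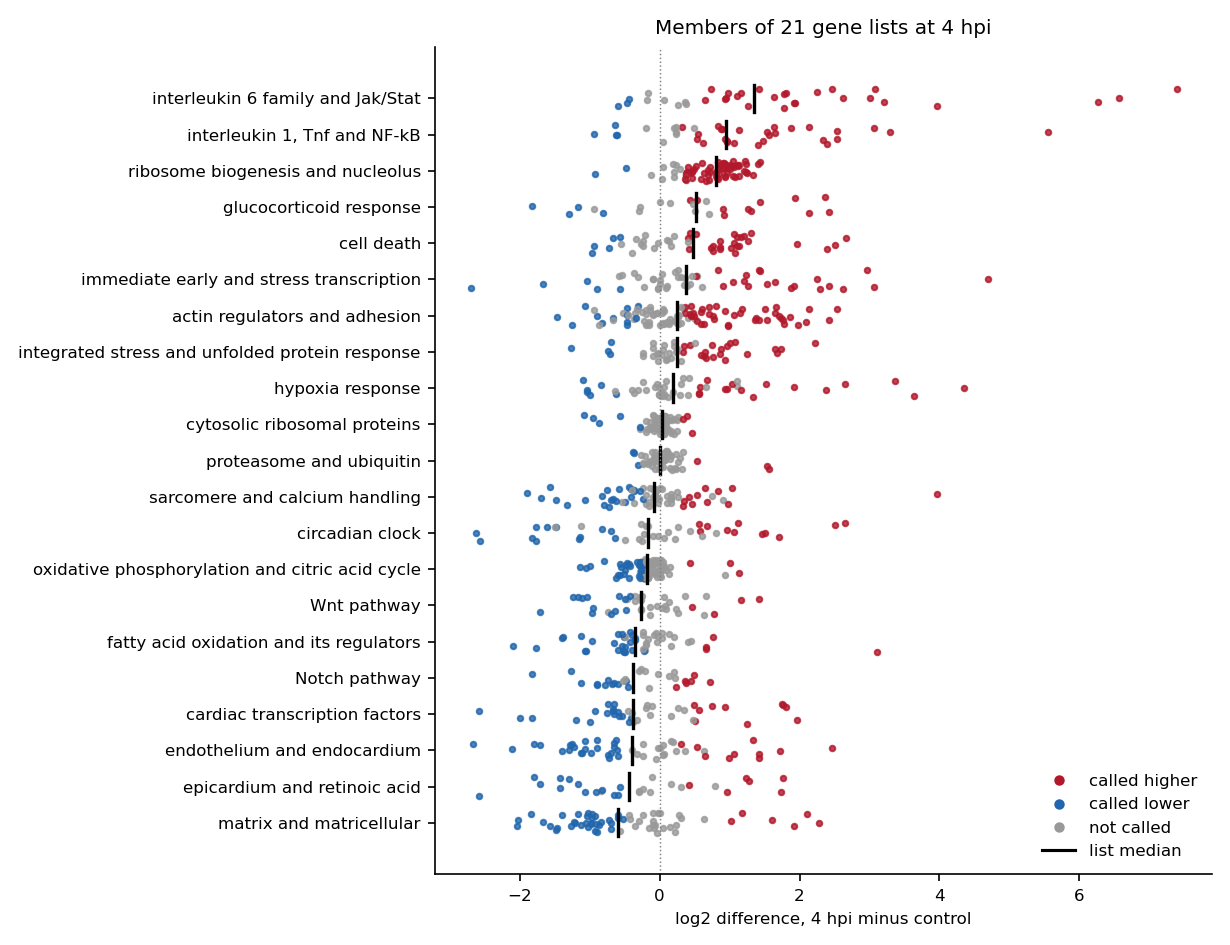
Log2 differences of 4 hpi minus control hearts (horizontal axis) for the measured members of 21 gene lists, 1 point per gene, red where called higher, blue where called lower, grey where not called, with each list's median as a black bar. Of these lists, interleukin 6 signalling (median 1.34), interleukin 1 and NF-kB signalling (0.95) and ribosome biogenesis (0.81) lie furthest to the right, and matrix genes (-0.59) furthest to the left. In the first 3, in that order, 11 of 25, 10 of 27 and 14 of 58 rises were above the signal minimum in no control pool.

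Among developmental pathways, Notch genes leaned towards falls. Of 10 measured ligands and receptors 1 rose and 7 fell, and of 28 pathway genes in all 6 rose and 12 fell, with a median of -0.37. *notch3* read 6.52, 6.34 and 6.00 in 4 hpi pools, against 7.61, 7.33 and 7.71 in control pools, and the target *nrarpa*, which also feeds back on the pathway, read 9.36, 9.04 and 9.66 at 4 hpi, against 10.18, 10.63 and 10.59 in control hearts. Only 1 of the 6 rises exceeded 1.6-fold, and the rises were 3 under both scalings and in the 6 arrays alone. Of 39 Wnt genes 4 rose and 13 fell, and *wnt11* and *wnt2bb* stood at the ends with -1.71 ± 0.20 and 1.42 ± 0.20. The Wnt falls were 20 after centring.

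In the Tgf-beta, activin and Bmp pathways 17 of 53 genes rose and 10 fell, and the falls were 16 under both scalings. *tgfb1a* read 9.89, 9.55 and 9.61 in 4 hpi pools, against 7.85, 7.88 and 7.77 in control pools, and *inhbaa*, an activin subunit, read 6.20, 6.72 and 6.71 at 4 hpi, against 4.51, 4.82 and 4.65 in control hearts. Another activin subunit gene, *inhbb*, gave the largest fall of these pathways (-3.13), followed by *bmp10l* and *mstnb*. The inhibitor *fstl3* and the target *id4* rose by 1.87 and 2.28, and *id1*, a target of Bmp, fell by 1.05. Of 37 growth factor genes 12 rose and 10 fell. *hbegfb*, a ligand of the Egf receptor, read 8.54, 9.06 and 7.14 at 4 hpi, against 4.28, 4.33 and 4.42 in control hearts. *btc*, another such ligand, read 6.19, 5.90 and 5.59 at 4 hpi, against 7.79, 8.08 and 7.69 in control hearts. *fgf11a* fell by 1.96 and *fgfr1b* rose by 1.66.

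The epicardium wraps the heart and makes retinoic acid after injury. Of 28 genes of the epicardium and of retinoic acid 6 rose and 13 fell, with a median of -0.44. *tbx18* read 6.44, 6.29 and 5.61 in 4 hpi pools, against 8.98, 8.52 and 8.57 in control pools. *tcf21* read 7.28, 6.96 and 6.51 at 4 hpi, against 8.59, 8.68 and 8.84 in control hearts. *aldh1a2*, which makes retinoic acid, read 10.65, 10.70 and 10.81 at 4 hpi, against 9.48, 9.49 and 9.47 in control hearts, and *rdh10b*, of the step before it, rose by 1.74 ± 0.14, while *dhrs3a*, which acts in the reverse direction of that step, fell by 1.43. The keratins *krt4* and *krt15*, shared by epicardium and skin, fell (-0.82 and -1.71), and *krt4* was not called without control pool 2 (-0.74) or control pool 3 (-0.69). The skin markers given with *aqp3a* were higher in control pools 2 and 3 than in pool 1, and their part in the keratin falls was not tested. The 11 epicardial markers averaged 7.19, 7.17 and 7.12 in 4 hpi pools, against 7.85, 8.05 and 8.07 in control pools.

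More genes of the extracellular matrix fell than rose. Of 61 measured genes (of 86 on the array) 6 rose and 33 fell, 30 of the falls over 1.6-fold, with a median of -0.59. Of the 61, 13 were above the signal minimum in no 4 hpi or control pool, and 9 of the 33 falls were above it in no 4 hpi pool. Of 21 collagens and laminins 1 rose (2 without 4 hpi pool 3) and 14 fell, all 14 over 1.6-fold, and their mean was 6.74, 7.06 and 6.99 in the 4 hpi pools, against 7.51, 7.77 and 7.89 in the control pools. *lamb1a*, a laminin chain of basement membranes, read 6.62, 6.93 and 7.06 at 4 hpi, against 8.68, 8.94 and 9.12 in control hearts. *col6a3* read 7.01, 7.30 and 7.63 at 4 hpi, against 8.71, 9.12 and 9.12 in control hearts. *mfap2*, of elastic microfibrils, read 5.62, 5.96 and 6.00 at 4 hpi, against 7.83, 7.92 and 7.91 in control hearts. The pools of these genes stood at least 1 log2 unit apart. The rises were few and included *has1*, a hyaluronan synthase (2.28 ± 0.26), *thbs1b* (thrombospondin, 8.83 at 4 hpi and 6.73 in control), *loxl2a* (1.92) and *col12a1a* (1.18 ± 0.21). *fn1b* was not called (-0.07). The 12 fibroblast markers, 7 of which fell and 1 of which rose, averaged 7.17, 7.42 and 7.19 in 4 hpi pools, against 7.68, 7.92 and 7.98 in control pools, and their part in the matrix falls was not tested.

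Genes of proteases and their inhibitors rose more often than they fell, with 21 rises and 10 falls among 44. Of the 21 rises 10 were above the signal minimum in no control pool. Of the 25 metalloproteinase and inhibitor genes among the 44, 11 rose and 5 fell. *mmp13a*, also on the neutrophil marker list, was the largest of these rises and among the 15 largest rises given above. The inhibitor *timp2b* read 11.73, 11.71 and 11.20 in 4 hpi pools, against 7.62, 7.45 and 7.53 in control pools, while *timp4.3* (-2.06 ± 0.33) and the gelatinase gene *mmp2* (-1.59 ± 0.15) fell. The clotting factor genes *f13a1a.1* and *f5* rose by 3.62 ± 0.87 and 3.47 ± 0.30, from levels near the background in control hearts (4.05 and 4.37).

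Of 49 endothelial and endocardial genes 10 rose and 24 fell, with a median of -0.40. The list of 17 markers of these cells showed no such shift. Among these markers 3 rose and 6 fell, with a median of -0.02, and their pool means overlapped between 4 hpi and control hearts. *cldn5b*, a tight junction gene, read 7.94, 8.52 and 7.64 in 4 hpi pools, against 5.13, 6.06 and 5.54 in control pools, and *gpr182*, a chemokine scavenger of endothelium, read 9.30, 9.03 and 8.84 at 4 hpi, against 10.66, 10.92 and 10.95 in control hearts. *nfatc1*, of the endocardium, fell by 1.40, the largest fall among the 17 markers. Of 45 hormone and peptide receptor genes with a few ligands, 16 rose and 16 fell. The melatonin receptor gene *mtnr1ab* gave the largest of these falls. The vasoconstrictor gene *edn1* (endothelin) read 8.04, 8.63 and 8.12 at 4 hpi, against 5.21, 5.12 and 4.98 in control hearts, and the adenosine receptor *adora2aa* read 7.44, 7.46 and 7.16 at 4 hpi, against 9.38, 9.41 and 9.21 in control hearts.

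Actin regulators and adhesion genes gave 40 rises and 12 falls among 98, with a median of 0.25, and the falls were 7 without 4 hpi pool 2 or without control pool 3. The rises included *itgb3b* (2.42), *arpc1b* (1.98) and *fmnl1a* (1.86), which are genes of blood cells. Among the genes not called were *arpc2* (0.03) and *ilk* (0.13). The other rises were not sorted by cell type, and the part of blood cell number in the 40 rises was not tested. Of 44 cell death genes 25 rose, 10 of them above the signal minimum in no control pool, and 5 fell. The BH3-only genes *bcl2l11* (7.21 at 4 hpi, 5.96 in control) and *bbc3* (6.58 and 5.38), which promote death, rose, and *mcl1a* and *mcl1b*, which restrain it, rose by 1.11 and 1.16. Of 27 p53 response genes 10 rose and 6 fell, and the rises were 5 without 4 hpi pool 3. *gadd45ab* rose by 1.76 and *ddb2* fell by 1.69, while *cdkn1a* was not called (0.19).

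Markers of leukocytes and thrombocytes were mostly higher at 4 hpi and differed among its pools. The 17 neutrophil markers averaged 7.87, 7.88 and 7.27 in 4 hpi pools, against 5.71, 5.72 and 5.68 in control pools, and 14 rose and 1 fell, the fall being lost without control pool 3. Of the 14 rises, 11 were above the signal minimum in no control pool. The 18 pan-leukocyte markers averaged 7.85, 8.09 and 7.25 at 4 hpi, against 6.33, 6.49 and 6.39 in control hearts. Among them 13 rose, 6 of these above the signal minimum in no control pool, and 1 fell. Pool 3 was the lowest 4 hpi pool for the neutrophil and the pan-leukocyte markers. The 12 thrombocyte markers averaged 8.55, 9.06 and 8.48 at 4 hpi, against 7.66, 7.28 and 6.92 in control hearts, and 8 rose and 0 fell. Of 16 erythrocyte markers 3 rose and 2 fell, and their means of 8.52, 8.98 and 8.71 at 4 hpi overlapped those of 8.84, 8.58 and 8.19 in control hearts. Among genes named above, *csf3r*, *hbegfb*, *acod1* and *slc7a11* were likewise lowest in pool 3 at 4 hpi. So were *il11b*, *il1b*, *timp2b* and the sarcomere gene *ankrd1a*, and pool 3 was the lowest in 114 of the 236 rises of over 4-fold. The part of cell number in these genes was not tested.

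The 21 macrophage markers lay between control and 1 dpi in their mean. They averaged 6.24, 6.38 and 6.35 in control pools, 7.49, 7.62 and 7.15 at 4 hpi and 9.44, 9.47 and 9.79 at 1 dpi. At 4 hpi 13 rose and 0 fell against control, and 18 were lower than at 1 dpi. Of the 13 rises 7 were above the signal minimum in no control pool. The granulin gene *grna.1* read 8.63, 9.13 and 7.83 at 4 hpi, against 4.37, 5.33 and 4.75 in control hearts, and averaged 10.94 at 1 dpi. Of 18 complement and acute phase genes 11 rose and 3 fell, with *cfbl*, of the alternative complement pathway, at 3.09 ± 0.45 and the antimicrobial peptide gene *leap2* at -2.40 ± 0.42. Of 36 interferon and antigen presentation genes 14 rose and 4 fell (2 without control pool 2 or 3), and *mhc1lia* fell by 1.94. Of the 11 complement and acute phase rises 7 were above the signal minimum in no control pool, as were 9 of these 14. Of the 36 interferon and antigen presentation genes 9 were above it in no 4 hpi or control pool.

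**Figure D5:**
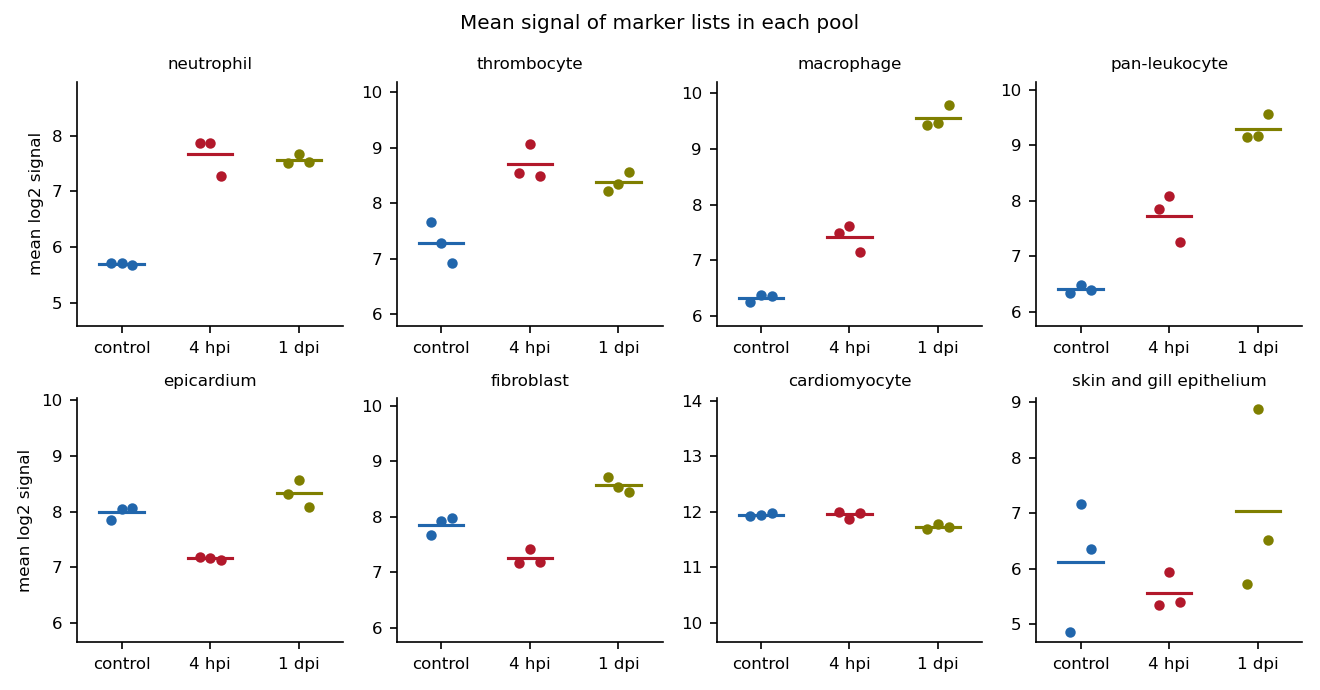
Mean log2 signal (vertical axis, with the same span in every panel) of 8 marker lists in each pool of control, 4 hpi and 1 dpi hearts, with the mean of the 3 pools as a bar. Neutrophil and thrombocyte means at 4 hpi lie near those at 1 dpi, and macrophage means lie between control and 1 dpi. Epicardial and fibroblast means are lowest at 4 hpi. Cardiomyocyte means differ little, in a list that holds *nppb* and *nppa*, which rose at 4 hpi.

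Set against 1 dpi, 2240 named genes (19.2%) were higher at 4 hpi and 3605 (30.8%) were lower. Of 90 genes of the respiratory chain and citric acid cycle 61 were higher at 4 hpi and 4 were lower. In the sarcomere and calcium handling lists 29 of 66 genes were higher and 3 lower. Matrix genes were lower in 34 of 61 cases, proteasome genes in 31 of 48 and actin and adhesion genes in 44 of 98, but 13, 5 and 7 of these genes were above the signal minimum in no 4 hpi or control pool. Of 70 ribosome biogenesis genes 10 were higher at 4 hpi and 2 were lower. All 72 measured genes of DNA replication and the cell cycle were lower at 4 hpi than at 1 dpi, but 50 of the 72 were above the signal minimum in no 4 hpi or control pool and so entered through later hearts, which makes this count no support. *pcna*, the sliding clamp of replication, is one that was well measured, and it averaged 8.66 in control hearts, 8.02 at 4 hpi and 10.05 at 1 dpi.

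In total 389 named genes were called against control in opposite directions at 4 hpi and 1 dpi with the difference between the times also called, 102 of them higher at 4 hpi and 287 lower. The genes given as examples were chosen after their values were seen. The titin cap gene *tcap* averaged 8.92 in control hearts, 9.95 at 4 hpi and 7.46 at 1 dpi. *dusp4*, an Erk phosphatase gene, averaged 9.54 in control hearts, 10.52 at 4 hpi and 8.13 at 1 dpi. *adma* (adrenomedullin) and *fgf1b* had the same order, with 4 hpi minus 1 dpi differences of 2.43 and 2.21. In the other direction *dhrs3a*, which turns retinal back to retinol, averaged 6.74 in control hearts, 5.31 at 4 hpi and 8.62 at 1 dpi. *pparg*, the nuclear receptor of fat storage and macrophages, averaged 6.15 in control hearts, 5.50 at 4 hpi and 8.57 at 1 dpi. These control pools are shared by both comparisons, so the opposite signs are not independent of each other.

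Replicate pools at 4 hpi were slightly more spread than control pools. The median SD over named genes was 0.13 in control hearts, 0.18 at 4 hpi and 0.15 at 1 dpi. Genes whose 3 pools lay more than 1 log2 unit apart numbered 259 in control hearts, 375 at 4 hpi and 462 at 1 dpi, of 11687.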

How the data were processed

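Gene expression was measured on 21 single-channel Affymetrix Zebrafish Gene 1.0 ST arrays, 3 pools of 5 ventricles in each of 7 groups. The deposited log2 signal intensities had been made by the authors with Partek and robust multi-chip analysis (RMA) with a GC-content correction, which normalises all arrays together. Gene symbols came from the platform's annotation: 20806 of 75212 features had 1 symbol, 855 had several and 53551 had none in it, and features with several or none were left unnamed. A gene with more than 1 tested feature was read from the feature with the highest mean over the 21 arrays, and for 6 of 545 such genes the called features disagreed in direction.

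Features with a log2 signal above 6 in at least 1 array were kept. A linear model with the 7 groups was fitted to all 21 arrays (limma 3.58.1, R 4.3.3, lmFit and eBayes, two-sided moderated test, 14 residual and 3.277 prior degrees of freedom), with Benjamini-Hochberg adjustment of the p-values over all 35783 features tested, with a threshold of 0.05. The model was tested on simulated data. Lists were described by counts and medians (Python 3.11.15, pandas 2.3.3, matplotlib 3.10.9). The number of arrays limits the precision. A p-value sets the difference between groups against the spread among pools within groups, estimated over all 21 arrays. The study describes 3 independent experiments, but the sources used here do not say which pool came from which. An exact permutation test of 3 against 3 pools cannot go below a p of 0.1 and was not used. Each column of values belonged to 1 sample (0 columns had none).

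Members and gene lists were chosen with earlier results of these data known. The rule for named genes took the 15 largest called rises and the 15 largest called falls with separated pools, up to 3 called genes in each direction per list and role, pathway-defining genes that were not called, genes named in the study and members of marker lists; further genes were chosen after their values were seen. Alternatives were no signal filter, a filter over the 6 arrays, quantile normalization, centring on the array median, a fit of the 6 arrays alone, a trended and robust prior, the replicate number as a block, each pool left out in turn, stricter thresholds, and the mean over a gene's features.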

Additional observations from a re-analysis of the deposited data

Results flagged for a closer look

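The genes in this part were called against control hearts in opposite directions at 4 hpi and at 1 dpi, and the difference between the 2 times was itself called by limma. Both comparisons use the same 3 control pools, so the opposite signs are not independent. Higher at 4 hpi than at 1 dpi were *tcap*, by 2.49 on the log2 scale, *adma*, by 2.43, *dusp4*, by 2.39, and *fgf1b*, by 2.21. Lower at 4 hpi were *dhrs3a*, with a difference of -3.31, *pparg*, with -3.07, *serpinh1a*, with -2.64, *krt4*, with -2.40, and *pcna*, with -2.03. Skin marker means, which bear on *krt4*, were 5.34, 5.95 and 5.40 at 4 hpi, against 5.72, 8.88 and 6.51 at 1 dpi, with 1 dpi pool 2 far above the others, and their part in the *krt4* difference was not tested. For *tcap* and *krt4* the call of 4 hpi against control was lost when single pools were left out. Each group held 3 pools, too few to test for a single outlying pool.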

How the results depend on the processing

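Of the alternatives run on the counts of features, 2 thresholds moved a count by over 1.5 times: at an adjusted p under 0.001, 2746 features were higher and 2424 lower at 4 hpi than in control hearts, and 3409 were lower by over 1.6-fold. Leaving out 1 pool at a time gave 6445 to 6799 higher and 5241 to 5781 lower features against control, and 4299 to 4979 higher and 5821 to 6644 lower against 1 dpi. Of 211 named genes checked, no called one changed its direction in these fits, and 203 after centring and 209 after quantile normalization kept both direction and call. Most of the 211 were chosen for large called changes, so these counts do not describe all named genes. Over all named genes, calls went from 2668 higher and 3160 lower as deposited to 2130 and 4128 after centring. Among the 211 genes, the limma fit of the 6 arrays alone ended the calls of *ackr4b*, *gata4*, *nppa*, *jak2a*, *psma6b* and *rpl7a* (adjusted p between 0.0502 and 0.108). It left 2 falls each, in place of 4, among NF-kB and integrated stress genes. Centring gave 4 falls in place of 2 among MAP kinase feedback genes and ended the call of *nppa*. It also gave 6 rises in place of 11 in the sarcomere and calcium handling lists.

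Deviations of pools with the same replicate number correlated at -0.030, -0.031 and 0.176 between 4 hpi and control, at 0.012, -0.016 and 0.009 between 4 hpi and 1 dpi, and at 0.201, 0.140 and 0.033 between control and 1 dpi. No set of 3 was above 0.1 throughout, and the sources used here do not say that a number marks an experiment, so the pools were not treated as paired. With the replicate number as a block 7620 features were higher and 6280 lower against control, and 5400 higher and 6958 lower against 1 dpi. In this limma fit the block ended the call of 1 of the 211 genes checked, *ackr4b* (adjusted p = 0.0534).

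Signals near the background limit what these arrays show: changes of genes below the median signal are lower limits, pools of 5 hearts average out differences between fish, and cell number and expression per cell are not separated.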
